A study of Caenorhabditis elegans with 6 samples.

Results

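The genes described here encode core proteins of the spliceosome and the SR proteins of C. elegans. They are the 22 of 20240 gene models whose public name begins with snr-, rsp-, prp-, uaf-, sap- or sfa- followed by a number. This rule uses names and no measured value, but it was set with earlier results of these data known. By name they fall into 7 Sm genes (*snr-1* to *snr-7*), 7 SR genes (*rsp-1*, *rsp-2*, *rsp-3*, *rsp-5*, *rsp-6*, *rsp-7* and *rsp-8*), 4 prp genes (*prp-4*, *prp-8*, *prp-17* and *prp-21*), and a mixed group of 4 (*uaf-1*, *uaf-2*, *sap-1* and *sfa-1*). All 22 counted as present, a rule that 7945 of the gene models met (more than 10 normalized read counts on average and some reads in each cell). RNA was taken from the larger anterior cell, AB, and the smaller posterior cell, P1, of 2-cell embryos of wild-type N2 worms grown on OP50 bacteria. Eggshells were removed with bleach, chitinase and chymotrypsin, and the cells were parted by hand. Matched AB and P1 cells were pooled for each of 3 replicates, so that a library is the average of its pool, and a pair below means the AB and the P1 library of the same number. The RNA was amplified by in vitro transcription from an oligo-dT primer before sequencing (RNA-amp-seq).

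Pre-mRNA splicing removes introns in 2 chemical steps carried out by small nuclear ribonucleoproteins (snRNPs), complexes of a small nuclear RNA and proteins. The Sm proteins form a ring on the U1, U2, U4 and U5 RNAs, a related Lsm ring sits on U6, and the U2AF and SF1 proteins mark the 3′ end of the intron before U2 joins. SR proteins bind exons through RNA recognition domains and help to choose splice sites. The early worm embryo inherits mRNAs for these proteins from its mother and transcribes little of its own genome at the 2-cell stage.

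No member was called different between the cells. By the quasi-likelihood test of edgeR with Benjamini-Hochberg adjustment, 0 of 22 were P1-enriched and 0 of 22 AB-enriched at an adjusted p under 0.10, where 0.856% and 0.604% of all present genes were. DESeq2 called 0 members too, beside 2.14% of present genes. At an unadjusted p under 0.05, edgeR named 2 members, *snr-7* and *snr-3*, both higher in P1, where it named 10.4% of present genes in all and 5.8% in that direction. DESeq2 named 1 member at that threshold and 8.66% of present genes. The median log2 fold change (P1 over AB) of the 22 was 0.15, beside 0.01 for all present genes. It was positive for 14 of 22 members and for 4073 of 7945 present genes. Without P1 replicate 1 the median was -0.07 with 7 positive, and without both libraries of pair 1 it was -0.10 with 5 positive. With all libraries it was 0.48 for the Sm genes, 0.11 for the SR genes, -0.45 for the prp genes and -0.22 for the mixed group. Without pair 1 these medians were -0.00, -0.08, -0.13 and -0.24. The edgeR p-values rest on the spread between these 3 pools per cell, moderated by the spread of all fitted genes. The fit on all libraries had 26.9 degrees of freedom in total, so they do not measure the spread of a gene's own pools alone. A normalized read count is a share of the amplified RNA of a library, so a difference per cell and a difference in the share of the RNA cannot be told apart.

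1 library stood apart from the rest. P1 replicate 1 correlated with the other libraries at Pearson's r of 0.911 to 0.924 on log2 normalized read counts across present genes, and the other libraries with each other at 0.951 to 0.980. In it, 14 of the 22 members had their highest count of all 6 libraries, among them 7 of 7 Sm genes and 6 of 7 SR genes, and 4 had their lowest. For all present genes these shares were 33.3% and 37.4%. Among present genes with a spliced length under 1000 bases, as all Sm genes have, 66.9% were highest in that library. Among those of 2000 bases or more, 59.4% were lowest in it. Library totals ran from 21249850 to 35591254 reads, and P1 replicate 1 had the smallest. The labels held up for the AB marker *mex-3*, which was called AB-enriched (log2 fold change -0.98, edgeR adjusted p = 0.068), while the P1 markers *pos-1* (0.18) and *cey-2* (0.47) were not called. Of other cell types, sperm msp genes gave 1 read in all, and the yolk protein genes *vit-1* to *vit-6* summed to 296 and 348 normalized read counts in AB and P1 replicate 1 and to at most 10.5 in each other library. The body wall muscle gene *myo-3* had 61 reads in AB replicate 3, 4 in P1 replicate 1 and 0 in the others. The part of these differences between libraries in the results below was not tested.

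**Figure D1:**
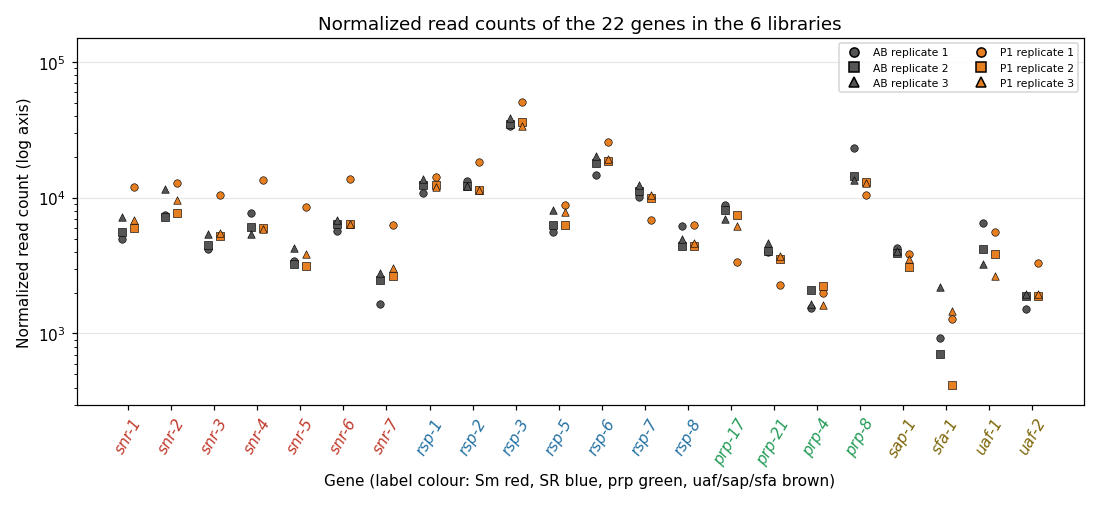
Normalized read counts (log axis) of the 22 genes, with AB libraries in grey, P1 libraries in orange, and replicates 1, 2 and 3 as circles, squares and triangles. The orange circle of P1 replicate 1 is the top point for all 7 Sm genes and the bottom point for *prp-8*, *prp-17* and *prp-21*.

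The Sm genes lay above 0 together when all 6 libraries were fitted. All 7 had a positive log2 fold change, from 0.19 (*snr-2*) to 0.78 (*snr-7*), and none was called. *snr-7*, the counterpart of SmG, lies on chromosome I from 2727016 to 2727546 on the plus strand (ce10). It had 1655, 2497 and 2794 normalized read counts in AB replicates 1, 2 and 3 and 6309, 2659 and 3038 in P1 replicates 1, 2 and 3. The P1 count was the higher one in each pair, but the count in P1 replicate 2 fell below that of AB replicate 3, so the groups overlapped. Its log2 fold change was 0.78 ± 0.28 (SE, 95% interval 0.20 to 1.35, edgeR adjusted p = 0.359). *snr-3*, the counterpart of SmD1 (chromosome II, 6488798 to 6489735, minus strand), had 4174, 4512 and 5421 normalized read counts in AB and 10447, 5225 and 5538 in P1. It too was higher in P1 in every pair with overlapping groups, at a log2 fold change of 0.58 ± 0.26 (SE, interval 0.05 to 1.10, edgeR adjusted p = 0.563).

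For the other Sm genes the direction was not shared by the pairs. *snr-5*, the counterpart of SmF (chromosome III, 7862001 to 7862510, plus strand), had 3396, 3241 and 4284 normalized read counts in AB and 8491, 3136 and 3869 in P1. Only the pair of replicate 1 had more in P1, and the log2 fold change was 0.49 ± 0.28 (SE, interval -0.08 to 1.07, edgeR adjusted p = 0.682). *snr-1* (SmD3), *snr-6* (SmE), *snr-4* (SmD2) and *snr-2* (SmB) had log2 fold changes of 0.48, 0.48, 0.39 and 0.19. Their log2 ratios in pair 1 were 1.29, 1.28, 0.79 and 0.79. Over the 7 Sm genes the median log2 ratio within a pair was 1.29 in pair 1 (0.79 to 1.93), 0.09 in pair 2 (-0.05 to 0.21) and -0.08 in pair 3 (-0.28 to 0.12). The Sm genes together took 0.268% of the reads of P1 replicate 1, 0.126% of those of AB replicate 1, and 0.135 to 0.169% in the other 4 libraries.

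Without P1 replicate 1, the median log2 fold change of the Sm genes was -0.01, with 3 of 7 positive and a range from -0.13 (*snr-4*) to 0.27 (*snr-7*), and none was called. Without P1 replicate 2 or P1 replicate 3, by contrast, *snr-7* was called P1-enriched, with log2 fold changes of 0.98 (edgeR adjusted p = 0.0165) and 0.95 (0.0531). In those fits 3.57% and 1.8% of present genes were called P1-enriched. *snr-7* was called in neither of the fits that left out P1 replicate 1.

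**Figure D2:**
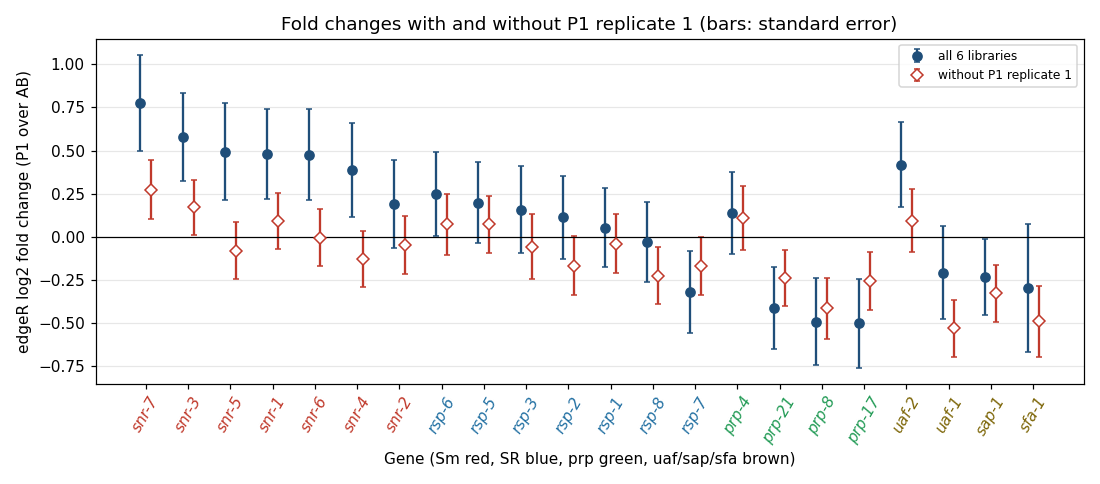
edgeR log2 fold changes (P1 over AB) of the 22 genes, with all 6 libraries (filled circles) and without P1 replicate 1 (open diamonds), and bars of 1 standard error. The Sm genes lie between 0.19 and 0.78 with all libraries and between -0.13 and 0.27 without P1 replicate 1.

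The SR genes had smaller log2 fold changes, from -0.32 to 0.25, and none was called. *rsp-3*, the counterpart of SF2/ASF (chromosome III, 12686152 to 12687821, minus strand), had 33541, 35040 and 38314 normalized read counts in AB and 50283, 35744 and 33866 in P1. Apart from P1 replicate 1, its libraries lay between 33541 and 38314, and its log2 fold change of 0.16 ± 0.25 (SE, interval -0.36 to 0.67, edgeR adjusted p = 0.845) leaves room for a change of either sign. *rsp-6*, the counterpart of SRp20 (chromosome IV, 7789842 to 7791223, minus strand), had 14665, 18013 and 20299 in AB and 25482, 18577 and 19219 in P1. Its groups overlapped as well, at a log2 fold change of 0.25 ± 0.24 (SE, interval -0.25 to 0.75, edgeR adjusted p = 0.746).

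Of the remaining SR genes, *rsp-5* (0.20), *rsp-2* (0.11) and *rsp-1* (0.05) had positive and *rsp-8* (-0.03) and *rsp-7* (-0.32) negative log2 fold changes. *rsp-8* is the counterpart of Tra2. *rsp-7* was the 1 SR gene that was lower in P1 in all 3 pairs (log2 ratios -0.58, -0.17 and -0.26) and the 1 whose lowest count was in P1 replicate 1. In pair 3, 7 of 7 SR genes were lower in P1, by log2 ratios of -0.26 to -0.03, and in pair 1, 6 of 7 were higher, by up to 0.80. The SR member *rsp-4*, the counterpart of SC35, has no public name in the files and so is not among the 22. Its count was likewise highest in P1 replicate 1, with 15147, 13488 and 14188 normalized read counts in AB and 23199, 13882 and 14104 in P1 (log2 fold change 0.25 ± 0.25, SE, edgeR adjusted p = 0.746, and -0.05 without P1 replicate 1). The median of the 7 SR genes was -0.06 without P1 replicate 1, with 2 positive, and 0 were positive without pair 1.

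The prp genes, which encode proteins of the U5, U4/U6 and U2 snRNPs and of the second step, had negative log2 fold changes except for *prp-4*, and none was called. *prp-17*, a second-step factor (chromosome I, 10936814 to 10940539, plus strand), had 8851, 8063 and 7011 normalized read counts in AB and 3352, 7393 and 6164 in P1. Each pair was lower in P1, but the count in P1 replicate 2 exceeded that in AB replicate 3. The log2 fold change was -0.50 ± 0.26 (SE, interval -1.03 to 0.03, edgeR adjusted p = 0.661). *prp-8*, the large central protein of the U5 snRNP (chromosome III, 8164312 to 8172637, plus strand), had 23281, 14360 and 13525 in AB and 10456, 13091 and 12881 in P1. Its AB and P1 counts did not overlap, although the AB counts in replicates 2 and 3 were close to the P1 counts, and the log2 fold change was -0.49 ± 0.25 (SE, interval -1.01 to 0.02, edgeR adjusted p = 0.655).

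*prp-21*, a subunit of the SF3a complex of the U2 snRNP (chromosome II, 484866 to 490403, plus strand), had 4002, 4062 and 4659 normalized read counts in AB and 2272, 3555 and 3748 in P1. Here again the groups did not overlap, and the log2 fold change was -0.41 ± 0.24 (SE, interval -0.90 to 0.07, edgeR adjusted p = 0.682). *prp-4*, a U4/U6 protein (chromosome I, 8733435 to 8735712, minus strand), had 1529, 2104 and 1641 in AB and 1988, 2235 and 1615 in P1, which overlapped (log2 fold change 0.14 ± 0.24, SE, edgeR adjusted p = 0.859). Without P1 replicate 1 the median of the 4 prp genes was -0.25, and the values of *prp-17*, *prp-8* and *prp-21* were -0.26, -0.42 and -0.24. Without both libraries of pair 1 they were -0.16, -0.11 and -0.26, and *prp-8* stood at -0.23 without AB replicate 1, its highest library. None of the 3 was called in these fits.

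The proteins that recognise the branch point and the 3′ splice site gave mixed values. *uaf-1*, the large U2AF subunit (chromosome III, 1062783 to 1076545, minus strand), had 6520, 4214 and 3241 normalized read counts in AB and 5616, 3875 and 2657 in P1. The P1 count was lower in each pair, and the pairs differed from one another more than the cells did, with replicate 1 high in both cells and replicate 3 low in both. Its log2 fold change was -0.21 ± 0.27 (SE, edgeR adjusted p = 0.786), and without P1 replicate 1 it was -0.53 and called AB-enriched (edgeR adjusted p = 0.0372, in a fit that called 3.51% of present genes AB-enriched). That fit kept AB replicate 1 without its mate. Without both libraries of pair 1, in a fit that had no block, the value was -0.20 (edgeR adjusted p = 0.937). With the replicate block on all libraries it was -0.21 (0.921). Neither of these fits called *uaf-1*. *uaf-2*, the small U2AF subunit (chromosome IV, 17116727 to 17118724, minus strand), had 1521, 1876 and 1950 in AB and 3326, 1904 and 1960 in P1. In pairs 2 and 3 its counts were nearly equal, and its log2 fold change was 0.42 ± 0.25 (SE, edgeR adjusted p = 0.686), or 0.09 without P1 replicate 1.

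*sfa-1*, the counterpart of the branch point protein SF1 (chromosome IV, 17104180 to 17110946, minus strand), had 933, 704 and 2217 normalized read counts in AB and 1284, 417 and 1454 in P1. Its coefficient of variation was 63.5% in AB, the highest of the 22, and 52.9% in P1, and its fold change had the widest error (-0.30 ± 0.37, SE, interval -1.06 to 0.46, edgeR adjusted p = 0.772). Without both libraries of pair 1 it was called AB-enriched at -0.65 (edgeR adjusted p = 0.0278, with 3.01% of present genes called on that side). That fit had no block, and with the replicate block on all libraries *sfa-1* was not called (-0.31, edgeR adjusted p = 0.921). *sap-1* (chromosome II, 4324362 to 4326092, plus strand) is now named *mog-2* and encodes the counterpart of the A′ protein of the U2 snRNP. It had 4255, 3933 and 4077 in AB and 3868, 3067 and 3556 in P1. These groups did not overlap, and of the 22 genes *sap-1* had the smallest coefficient of variation within AB (3.95%), at a log2 fold change of -0.23 ± 0.22 (SE, interval -0.68 to 0.22, edgeR adjusted p = 0.746).

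Across the members, 3 had P1 counts entirely below AB (*prp-8*, *prp-21* and *sap-1*) and 0 entirely above, where 8.81% and 7.1% of present genes did. The direction was the same in all 3 pairs for 3 members that were higher in P1 (*snr-3*, *snr-7* and *uaf-2*) and for 6 that were lower (*rsp-7*, *prp-8*, *prp-17*, *prp-21*, *sap-1* and *uaf-1*). The corresponding shares of present genes were 19.1% and 21.4%. In pair 1, 16 of 22 members were higher in P1, in pair 2 9, and in pair 3 4. Of the 7945 present genes, 3817, 4047 and 3949 were. The median log2 ratio of the 22 was 0.52, -0.01 and -0.11 in pairs 1, 2 and 3, beside -0.03, 0.01 and -0.00 for present genes.

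Spliced length ran in parallel with these ratios. The Sm genes are the shortest members, with spliced lengths of 348 to 797 bases, and *prp-8* is the longest at 7407. Spearman's rho between length and the log2 ratio over the 22 members was -0.81 in pair 1, -0.58 in pair 2 and -0.48 in pair 3. Over the 7830 present genes with a length it was -0.52, -0.04 and 0.04. These are descriptions over genes that share their libraries. Among present genes under 1000 bases, the median log2 ratio in pair 1 was 0.74, among those from 1000 to under 2000 bases 0.00, and among those of 2000 bases or more -0.64. In the same classes the members had medians of 1.28 (9 genes), 0.38 (9 genes) and -0.21 (4 genes). In pairs 2 and 3 all 3 classes of present genes had medians between -0.02 and 0.02.

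Length did not order every member. In pair 1 *sap-1* (943 bases) had a log2 ratio of -0.14, while *rsp-6* (979 bases) had 0.80 and *uaf-2* (1047 bases) had 1.13. At the long end, *rsp-1* (2243 bases) and *sfa-1* (2820 bases) had 0.40 and 0.46 in pair 1, where *prp-21* (2095 bases) had -0.82. The part of transcript length in the differences of the Sm and prp genes was not tested.

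**Figure D3:**
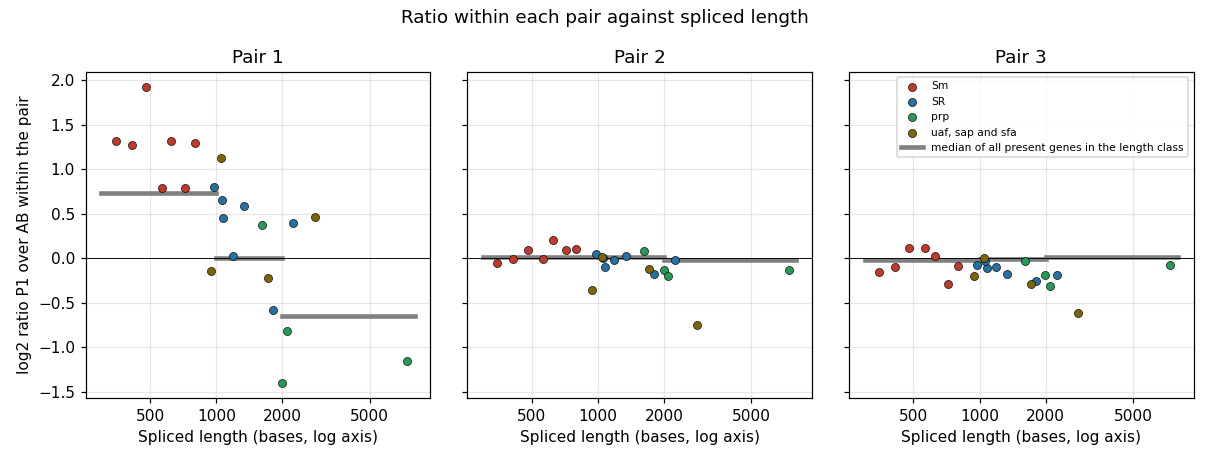
The log2 ratio of P1 over AB within pairs 1, 2 and 3 against spliced length (log axis) for the 22 genes, coloured by group, with grey lines for the median of all present genes under 1000, from 1000 to under 2000, and of 2000 bases or more. In pair 1 the points fall from the short Sm genes (up to 1.93) to *prp-17* (-1.40) and *prp-8* (-1.15), and in pairs 2 and 3 most lie near 0.

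Per length, the members spanned a wide range of levels. Mean CPM (reads scaled to the size of the library) per kb of spliced length over the 6 libraries ran from 1049 for *rsp-3* and 735 for *rsp-6* to 42.6 for *prp-4* and 15.5 for *sfa-1*. Below the top SR genes came *snr-6* (680), *snr-2* (487), *snr-4* (483), *snr-5* (466), *rsp-2* (450), *snr-3* (347), *snr-1* (329), *rsp-5* (252) and *snr-7* (243). The lower part of the order held *rsp-7* (211), *rsp-1* (209), *rsp-8* (161), *sap-1* (150), *prp-17* (128), *uaf-1* (93.4), *uaf-2* (73.8), *prp-8* (73.2) and *prp-21* (66.4). Neighbours in this order had overlapping ranges over the 6 libraries, except that *prp-4* (34.0 to 51.1) lay above *sfa-1* (5.5 to 30.4) throughout. Within single libraries, *rsp-3* exceeded *rsp-6*, *snr-6* exceeded *snr-2*, *rsp-2* exceeded *snr-3* and *snr-1* exceeded *rsp-5* in 6 of 6. Without division by length, *prp-8* stood at place 3 instead of 19 and *snr-5* fell from place 6 to 15. Whether reads scaled with spliced length after amplification from an oligo-dT primer was not tested, so the order between genes depends on that division.

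The Sm proteins assemble in equal numbers, and the reads per length of their genes differed. Per kb, *snr-6* had the highest and *snr-7* the lowest level of the Sm genes in each library, and their ratio was 4.0, 2.98 and 2.87 in AB and 2.54, 2.79 and 2.46 in P1. Without division by length *snr-7* was again lowest in each, but *snr-2* was highest in 4 libraries, *snr-4* in AB replicate 1 and *snr-6* in P1 replicate 1. The ratio per length of *uaf-1* to *uaf-2*, which form a dimer, was 2.62, 1.37 and 1.02 in AB and 1.03, 1.24 and 0.83 in P1. In each pair that ratio was lower in P1, and over the libraries it lay on both sides of 1. In reads without division by length it was above 1 in all 6, from 1.36 to 4.29. Among the SR genes *rsp-3* was the highest in every library, and stood 5.24 to 9.98 times above the lowest.

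**Figure D4:**
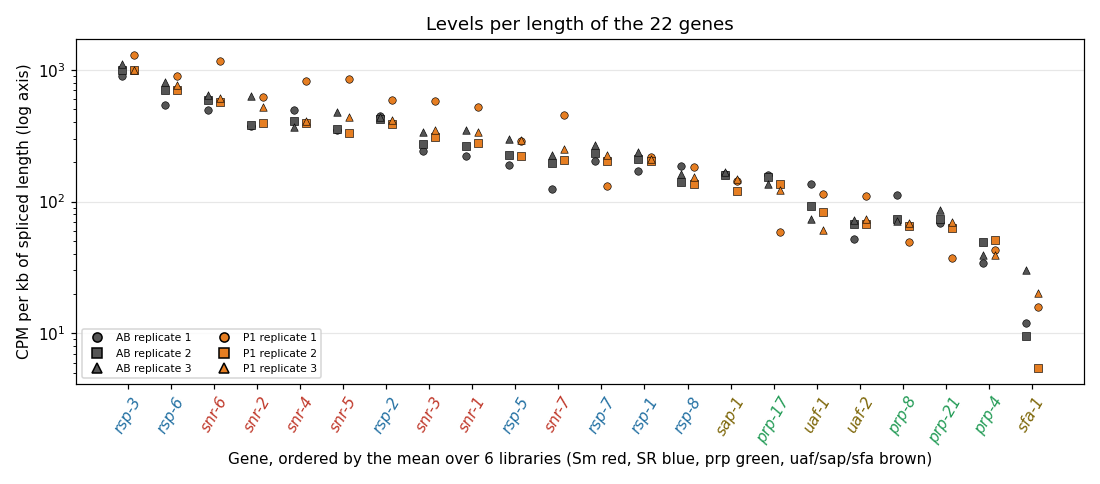
CPM per kb of spliced length (log axis) of the 22 genes in each library, ordered by the mean over the 6 libraries, with AB in grey, P1 in orange and replicates as circles, squares and triangles. SR and Sm genes fill the upper part of the order from 1049 (*rsp-3*) down, and *sfa-1* stands lowest at 15.5.

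Several members lie beside each other in the genome. *uaf-2* and *sfa-1*, on the same strand 5780 bases apart, are known as genes of a shared operon. Their levels were 52.1 to 110 and 5.5 to 30.4 CPM per kb, and their log2 ratios in pairs 1, 2 and 3 were 1.13, 0.02 and 0.01 for *uaf-2* and 0.46, -0.75 and -0.61 for *sfa-1*. The ranges of their levels did not overlap, and *sfa-1* had the lower ratio in each pair. *snr-3* and *rsp-5* point away from each other 390 bases apart, with ratios of 1.32, 0.21 and 0.03 for *snr-3* and 0.65, 0.01 and -0.03 for *rsp-5*. *rsp-1* and *rsp-2*, also divergent, are 1024 bases apart. Their ratios were close, at 0.40, -0.02 and -0.19 for *rsp-1* and 0.46, -0.09 and -0.11 for *rsp-2*. Such closeness was not particular to neighbours, as *rsp-3* on chromosome III had 0.58, 0.03 and -0.18. Whether strand was used in counting is not given in the sources used here, but gene models that overlap a member held at most 56 reads over all libraries.

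Of 46 further splicing genes, chosen by role, 44 were present and 0 were called in either direction by edgeR. At an unadjusted p under 0.05 it named 5, or 11.4%, beside 10.4% of all present genes. Of the 5, 4 were higher in P1, and 5.8% of present genes were named in that direction. DESeq2 named 2 at that threshold, beside 8.66% of present genes. The median log2 fold change of the 44 was -0.17, with 20 positive. The Lsm ring of U6 (*gut-2*, which is the Lsm2 gene, and *lsm-3* to *lsm-8*) stood closest to the Sm genes: 7 of 7 were positive, from 0.30 to 0.75, and 7 of 7 were highest in P1 replicate 1. *lsm-8* had 1427, 1467 and 1468 normalized read counts in AB and 3785, 1718 and 1873 in P1. These did not overlap, at a log2 fold change of 0.75 ± 0.26 (SE, edgeR adjusted p = 0.337), and *lsm-7* had 0.68 ± 0.29 (SE, 0.533). The median log2 ratios of the Lsm genes in pairs 1, 2 and 3 were 1.41, 0.10 and -0.02, and their spliced lengths were 276 to 609 bases.

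**Figure D5:**
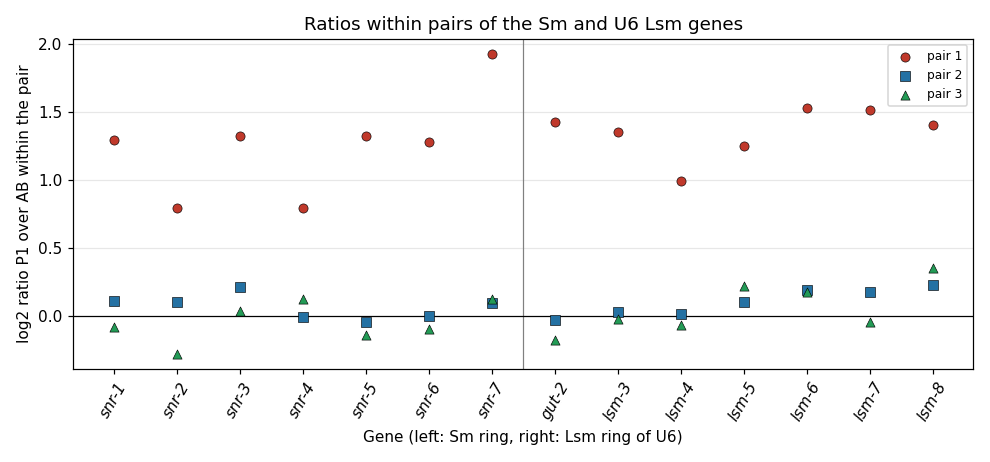
The log2 ratio of P1 over AB within pairs 1 (red circles), 2 (blue squares) and 3 (green triangles) for the 7 Sm genes and the 7 Lsm genes of U6. Pair 1 lies between 0.79 and 1.93 for both rings, and pairs 2 and 3 between -0.28 and 0.35.

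In that list, 1 of 7 helicase genes and 0 of 4 Prp19 complex and step-factor genes had a positive log2 fold change, with medians of -0.43 and -0.29. P1 replicate 1 was the lowest library for 5 of the 7 and 4 of the 4, and without it the medians were -0.15 and -0.06. The median spliced lengths of these groups were 3200 and 2116.5 bases. Of all present genes of 2000 bases or more, 59.4% were lowest in P1 replicate 1. *sftb-1*, the counterpart of SF3B1, had 11863, 8796 and 9409 normalized read counts in AB and 4072, 7818 and 8412 in P1, which did not overlap, at a log2 fold change of -0.57 ± 0.26 (SE, edgeR adjusted p = 0.585). *mog-5* and *emb-4*, both helicase genes, had -0.47 each (SE 0.29 and 0.28). The largest values among the present genes of the list belonged to genes with few reads, *asd-2* (0.78 ± 0.66, SE, with 27.9 to 116 normalized read counts) and *exc-7* (-0.88 ± 1.29, SE, with 6.80 to 28.9), both encoding regulators of alternative splicing. A further 10 prp and sap genes, listed under their sequence names and so not among the 22, had log2 fold changes of -0.73 to -0.09. P1 replicate 1 was the lowest library for 10 of 10. It was lowest for 35.5% of present genes from 1000 to under 2000 bases and 59.4% of longer ones. The median spliced length of these genes with *rsp-4* was 1905 bases. Without P1 replicate 1 *prp-40* had 0.26 and *sap-140* -0.02, and the median of these genes with *rsp-4* was -0.13 in place of -0.28. The lowest was that of *prp-18*, a second-step factor, with 3444, 3217 and 2949 normalized read counts in AB and 1309, 2375 and 2110 in P1. Its groups did not overlap, and the log2 fold change was -0.73 ± 0.24 (SE, edgeR adjusted p = 0.261), or -0.77 with the replicate block (0.376). It was called AB-enriched without P1 replicate 1 (-0.54, edgeR adjusted p = 0.0511), a fit that kept AB replicate 1 without its mate. It was also called without P1 replicate 2 (-0.94, 0.0337) and without pair 1 (-0.47, 0.0861), but not without P1 replicate 3 (-0.79, 0.197). The fits that called it named 3.51%, 2.71% and 3.01% of present genes AB-enriched.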

How the data were processed

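For 3 AB and 3 P1 libraries, the table deposited by the authors holds raw read counts on gene models. These counts came from reads cleaned by Tagdust, placed on ce10 by Tophat 1.4.0 and assigned to RefSeq gene models by HTSeq 0.5.3. The deposited normalized read counts are a signal that the authors made by dividing each library by its DESeq 1.2.1 size factor. Whether strand was used is not given in the sources used here. The library totals, 21249850 to 35591254 reads, put the 3-count floor at 0.0843 to 0.141 CPM, and amplified reads are not independent molecules, so that floor covers counting error only.

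Fold changes were fitted to the raw counts in R 4.3.3 by edgeR 4.0.16 (TMM, no block), fitted and adjusted over all 13717 gene models with a read, and a call needed an adjusted p under 0.10 in a present gene. The standard error is the absolute log2 fold change over the square root of the F statistic of the test. Intervals use this standard error and the t quantile at the 26.9 moderated degrees of freedom of the fit. Ratios within pairs were taken on normalized read counts plus 1. The spliced length of a gene is that of its longest WBcel235 transcript, found for 98.6% of present genes and for all 22 members. The presence rule is that of the study's R code, and its methods text words it with a higher minimum of reads, not used here. Coordinates are those of the files. No sequences of these genes were used here.

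The members and lists were chosen with earlier results of these data known. Every member may be named, and those with counts per library are the 3 with the largest fold change in each direction and the 2 with the highest and lowest level. Counts of *uaf-1*, *uaf-2*, *sap-1*, *rsp-4* and *prp-18* and the value of *mog-5* were added after their values were seen, as were the length classes and the genes matched by current name. Of the 46 other splicing genes, the 3 with the largest fold change in each direction are named. The study pooled matched AB and P1 cells, and on that ground same-numbered libraries were taken as pairs. The deviations of same-numbered libraries from the cell means were weakly correlated (r = 0.175, 0.220 and 0.173, against -0.219 to 0.080 for different numbers). Deviations within a cell balance each other, so these values depend on one another and do not settle the pairing. As alternatives, results were recomputed with DESeq2 1.42.0, other size factors (median of ratios), other gene filters, a replicate block, a stricter threshold, and the omission of libraries and pairs. The edgeR code was tested on simulated data. Descriptions and plots used Python 3.11.15 with pandas 2.3.3, scipy 1.17.1 and matplotlib 3.10.9.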

Additional observations from a re-analysis of the deposited data

How the results depend on the processing

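Under DESeq2, median-of-ratios size factors, both gene filters and the replicate block, no member and no other splicing gene was called, as at an adjusted p under 0.05, and none of the fold changes of the 11 members followed changed sign. With the replicate block the median log2 fold change was 0.14 over the members, 0.38 for the Sm genes, 0.08 for the SR genes, -0.45 for the prp genes and -0.23 for the mixed group, and the pairing changed no call. Over the omissions of a library or a pair, 0 to 1 members were P1-enriched and 0 to 1 AB-enriched, and 0 to 3 and 0 to 1 other splicing genes. The member was *snr-7* without P1 replicate 2 or 3, *uaf-1* without P1 replicate 1 and *sfa-1* without pair 1, and the other genes were *lsm-5*, *lsm-7* and *lsm-8* without P1 replicate 2, *lsm-8* without P1 replicate 3 and *ddx-15* without P1 replicate 1. Outside these lists, *prp-18* was called AB-enriched without P1 replicate 1, without P1 replicate 2 and without pair 1. Over these omissions the median log2 fold change ran from -0.095 to 0.28 over the members and from -0.0055 to 0.79 for the Sm genes. It ran from -0.082 to 0.22 for the SR genes and from -0.60 to -0.13 for the prp genes. The median of the mixed group ran from -0.41 to 0.067 (without AB replicate 3). Among the 11 members followed, log2 fold changes that changed sign ran from -0.11 to 0.81 for *snr-5*, -0.082 to 0.33 for *rsp-3* and -0.026 to 0.43 for *rsp-6*. Those of *prp-4*, *sfa-1* and *uaf-1* ran from -0.00053 to 0.29, -0.65 to 0.36 and -0.53 to 0.090. That of *snr-7* ran from 0.10 to 1.11. Of the members not followed, *snr-2*, *snr-4*, *snr-6*, *rsp-1* and *rsp-2* turned from positive to negative without P1 replicate 1. *snr-1* and *rsp-5* did so without pair 1. The cause was not tested. With 3 pools per cell, the standard errors of the members' log2 fold changes were 0.22 to 0.37, which limits what the fit on all libraries can resolve.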
